A study of Mus musculus with 11 samples.

Results

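The clustered protocadherins were examined in CUT&RUN peak lists from mouse tumour lines that carry an HA-tagged fusion. The members were taken by symbol, as the protein-coding genes whose names start with Pcdha, Pcdhb or Pcdhg, and 57 of 21627 protein-coding genes on chromosomes 1 to 19 and X met that rule. They comprised 14 Pcdha, 22 Pcdhb and 21 Pcdhg genes. Peaks were mapped over the 3 clusters and 25 kb each side as 1 locus of 962 kb (chromosome 18, 36905285 to 37866873, GRCm38, the assembly behind mm10). Pcdhgb8, a pseudogene in the reference table, and Gm37013, Gm38666 and Gm38667, whose gene models run on into Pcdhg, lie in the locus and are not members.

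In CUT&RUN a nuclease tethered through an antibody cuts the DNA beside a chromatin protein in opened cells, and the released fragments are sequenced. The 11 libraries came from 2 lines derived from mouse tumours, M00002 and M00001, both carrying the HA-tagged fusion written CRfus1, taken here as the ZFTA-RELA fusion of the series title, and both grown untreated in neural medium with bFGF and EGF. HA, p65, H3K27ac with the antibodies ac4729 and ac647, and IgG came from M00002, and HA, Cbp, p300, Rpb1 (as Rpb1_S2 and Rpb1_S5, here S2 and S5) and IgG came from M00001. Each target had 1 library per line and each library is 1 peak list, so there was no replicate, no test between groups was possible, and all comparisons are descriptions of these libraries. The sources used here do not give how the fusion was introduced or with which promoter.

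Clustered protocadherins are adhesion proteins of the cadherin superfamily that give neurons surface identities through homophilic binding. In the Pcdha and Pcdhg clusters each gene supplies its own large first exon, with a promoter of its own, which is spliced to last exons common to the cluster, whereas each Pcdhb gene stands alone as a short gene. Promoter choice is known to depend on CTCF and cohesin, which loop a promoter to enhancers inside and downstream of the clusters, and the C-type genes (Pcdhac1, Pcdhac2, Pcdhgc3, Pcdhgc4 and Pcdhgc5) are known for more uniform use across neurons than the others. This layout was visible in the gene table: the 14 Pcdha genes had 14 different starts, from 36930285 to 37143678, and ends within 1240 bp of each other. The 21 Pcdhg genes had starts from 37661775 to 37819546 and ends within 10 bp of each other. Any peak near such a shared end or in the last part of a cluster belongs to many genes at once, and such a peak was counted once.

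The locus held 24 peaks, and they fell at 16 separate sites. HA of M00002 had 3 peaks, p65 had 1, H3K27ac had 4 with ac4729 and 3 with ac647, S2 had 10 and S5 had 3. HA of M00001, Cbp, p300 and both IgG libraries had 0 peaks. The sites were unequally spread: the Pcdha cluster held 4 peaks, the Pcdhb cluster 1 and the Pcdhg cluster 9, while 6 lay between Pcdhb and Pcdhg and 4 in the flank beyond Pcdhg. The flank before Pcdha and the stretch between Pcdha and Pcdhb held 0. Peaks of 2 or more lists met at only 3 sites, which held 11 of the 24 peaks. Those sites were the end of Taf7, the last part of the Pcdhg cluster, and a site in Diaph1. Of the 57 members, 23 had a peak of any list within 5 kb of either end, against 68.5% of all protein-coding genes, and 21 of the 23 were Pcdhg genes.

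**Figure D1:**
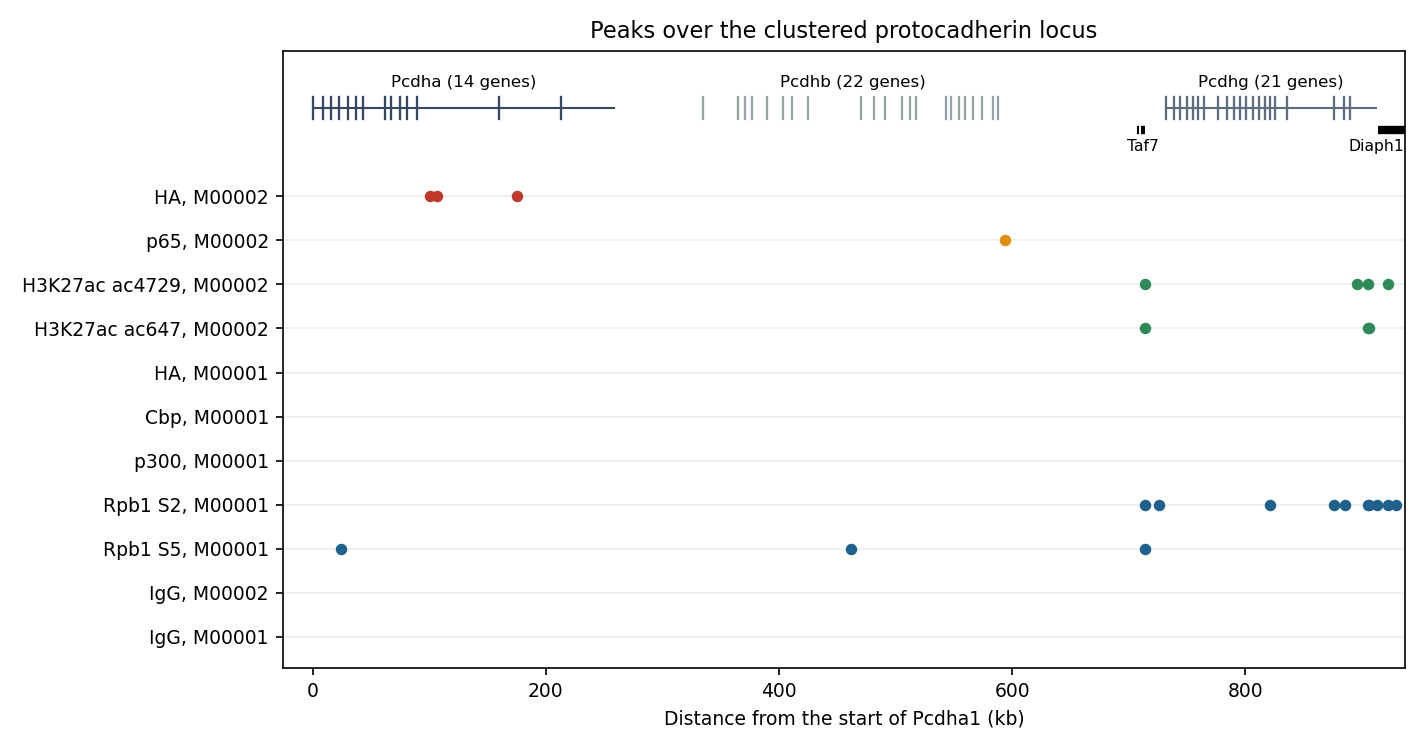
Peaks of the 11 lists (rows) over the locus, by distance from the start of Pcdha1 in kb. Dots are peak summits, vertical ticks above are the starts of the 57 genes, and black bars are Slc25a2 (left of Taf7, without a name), Taf7 and the part of Diaph1 in the flank. HA of M00002 has 3 peaks, all over Pcdha, H3K27ac and S2 gather from Taf7 to the right end, and 5 rows are empty.

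HA was sparse and weak over the clusters. In M00002 the 3 HA peaks lay at 37031006 to 37031084, 37036609 to 37036695 and 37105860 to 37105944, all inside the Pcdha cluster. The first and the second lay 10776 and 16379 bp after the start of Pcdha12, and the third 15724 bp after the start of Pcdhac1, so 0 of them lay within 5 kb of an end of any member. Because Pcdha genes are nested, these 3 peaks fell inside the bodies of 13 of 57 members, against 38.1% of all protein-coding genes with an HA peak of M00002 in the body. All 3 had the same fold enrichment of 3.74 and the same −log10 q of 1.46. Fold enrichment is the authors' own ratio of signal to local background at a peak's summit, and it is compared here only within a list. The identical values are common in that list: 4072 of its 29937 peaks (13.6%) carry exactly this fold, p and q. Of the HA peaks of M00002, 26.3% had a lower fold, and the list's median was 4.49. The 3 peaks were 79, 87 and 85 bp wide, against a list median of 116 bp and a narrowest peak of 79 bp.

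No other list met these HA peaks. An overlap of at least 1 bp with any of the other 10 lists was found for 0 of 3 (exact Clopper-Pearson 95% interval 0 to 70.8%, counting error over peaks only). Over the whole list, 33.7% of HA peaks of M00002 overlapped p65, 37.0% ac4729, 22.3% ac647 and 16.9% HA of M00001. With 3 peaks the interval includes all of these shares, so a difference was not detectable. The nearest p65 peak lay 237 to 312 kb from the 3 HA peaks and the nearest H3K27ac peak of ac4729 248 to 323 kb. HA of M00001 had 0 peaks between 36546627 and 38107313, a gap of 1561 kb. The peak before that gap had a fold of 3.48 and a −log10 q of 0.750, and the peak after it overlapped IgG of M00001.

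By gene, 0 of 57 members had HA within 5 kb of either end in M00002, where 39.9% of all protein-coding genes did, and 0 of 57 in M00001, where 16.5% did. The members are neighbours, and in 2 clusters they share ends, so these are not 57 independent observations. Measured by length, HA of M00002 had 3.12 peaks per Mb in the locus, against 11.4 per Mb over chromosomes 1 to 19 and X and 9.08 on chromosome 18. HA of M00001 had 0 per Mb against 3.23 and 1.93. Low counts were not rare for a stretch of this length: of 2727 windows of 962 kb laid end to end along the chromosomes, 28.1% held 3 or fewer HA peaks of M00002 and 23.8% held 0 of M00001. The windows were not matched to the locus for gene content, and unsequenced stretches were not left out. Cbp, a coactivator and histone acetyltransferase, had 0 peaks, as in 27.8% of the windows, and p300, its relative, had 0, as in 31.6%. IgG had 0 peaks in the locus, as in 22.9% of the windows for M00002 and 62.1% for M00001. At the ends of all protein-coding genes the shares were 7.14% for Cbp, 10.4% for p300, and 4.82% and 1.43% for IgG of M00002 and M00001, against 0 of 57 members in each.

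**Figure D2:**
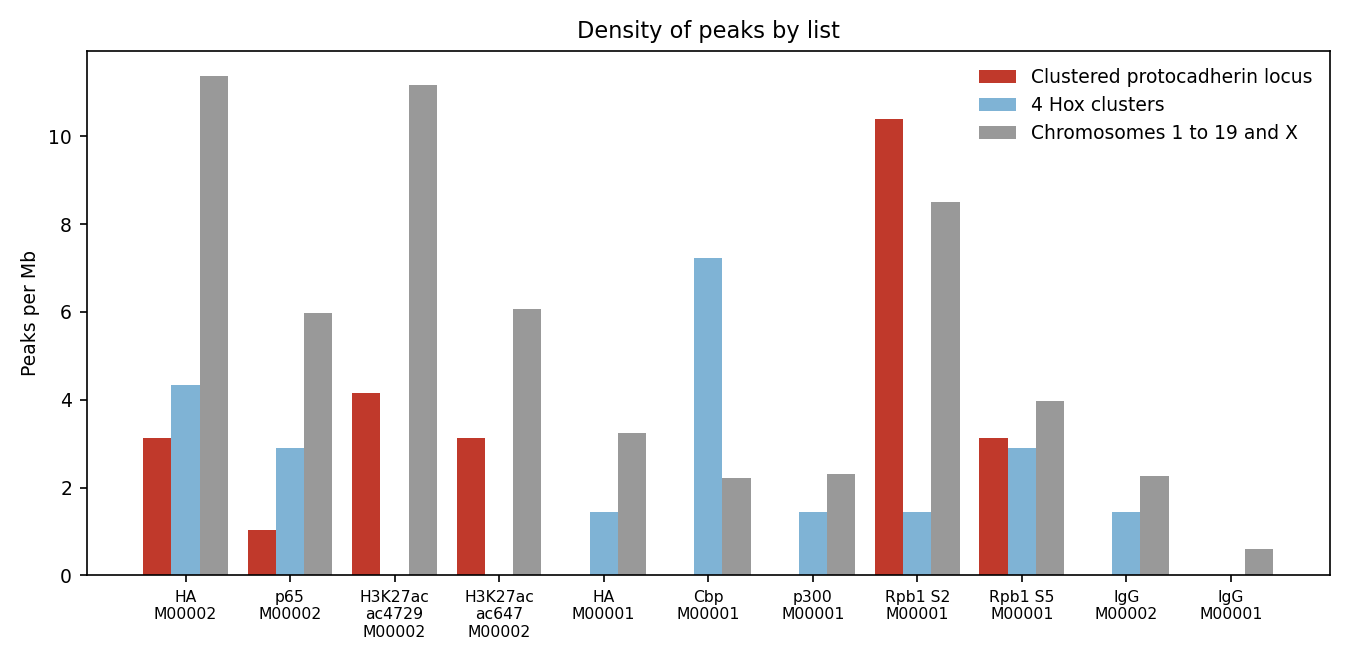
Peaks per Mb in the clustered protocadherin locus (962 kb, red), over the 4 Hox clusters with 25 kb each side (blue) and over chromosomes 1 to 19 and X (grey), for each list. The locus is below the chromosomes in every list except S2, where it has 10.4 peaks per Mb against 8.50. Of the 10 S2 peaks of the locus, 5 lie inside a protocadherin cluster.

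p65 is the product of Rela, and RELA is also a portion of the fusion. The p65 library had 1 peak in the locus. This peak lay 2627 bp beyond the last Pcdhb gene, Pcdhb22, at 37524046 to 37524132. Its fold was 3.19 and its −log10 q 0.647, and 6.98% of the p65 peaks had a lower fold. Pcdhb22 was therefore the only one of 57 members with p65 within 5 kb of an end, against 25.1% of all protein-coding genes.

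Rpb1, the catalytic subunit of RNA polymerase II, marked the starts of 3 Pcdhg genes. S2 peaks covered the starts of Pcdhgb7, Pcdhgc3 and Pcdhgc4, and 0 of the other 54 starts had an S2 peak over them. The share of all protein-coding genes with S2 over a start was not counted. At Pcdhgc3 (37806410 to 37841873) the peak ran from 37806176 to 37806650, with a fold of 4.39 and a −log10 q of 6.78. At Pcdhgc4 (37815079 to 37841873) it ran from 37815053 to 37815347, with a fold of 3.24 and a −log10 q of 2.90. At Pcdhgb7 (37751619 to 37841870) it ran from 37751552 to 37751792, with a fold of 3.14 and a −log10 q of 1.84. Pcdhgc3 thus had the strongest of the 3, above 62.2% of all S2 peaks, while Pcdhgc4 and Pcdhgb7 were above 28.9% and 23.1%. Pcdhgc3 and Pcdhgc4 are C-type genes. The other 3 C-type genes, Pcdhac1, Pcdhac2 and Pcdhgc5, had no peak of any list over their starts. Phosphorylation at serine 2 of the Rpb1 tail is known from elongating polymerase and at serine 5 from initiating polymerase. S5 had 0 peaks in the Pcdhg cluster. The S5 list was smaller, with 10451 peaks against 22368 for S2, or 3.97 per Mb against 8.50. In a cluster of 180 kb few S5 peaks could fall at that density, so the 0 does not separate the 2 forms.

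All 21 Pcdhg genes had S2 within 5 kb of an end, and the 36 Pcdha and Pcdhb genes had none. The count of 21 of 57 is 36.8%, against 51.1% of all protein-coding genes. Of the members, 6 had S2 within 5 kb of their start, and the share of all protein-coding genes by start was not counted. All 21 had the same 1 peak near their shared end, at 37842500 to 37842990. That peak lay 627 bp beyond the shared end of the cluster and 611 bp before the nearer end of Diaph1, so it cannot be assigned to either. Over the 10 S2 peaks of the locus, 4 covered an end of a protein-coding gene (40.0%, exact Clopper-Pearson 95% interval 12.2 to 73.8%), against 25.8% of all S2 peaks, a difference that 10 peaks could not show. S2 was the only list with more peaks per Mb in the locus than over the chromosomes, at 10.4 against 8.50. Of the windows, 70.0% held 10 or fewer. Only 5 of the 10 peaks lay in the Pcdhg cluster, with 2 between Pcdhb and Pcdhg and 3 in the flank beyond Pcdhg. Without the flanks 7 were left, and their density was not counted, so the higher density cannot be credited to the protocadherin genes. The 842 kb between 36802005 and 37643987, which hold all Pcdha and Pcdhb genes, had 0 S2 peaks.

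**Figure D3:**
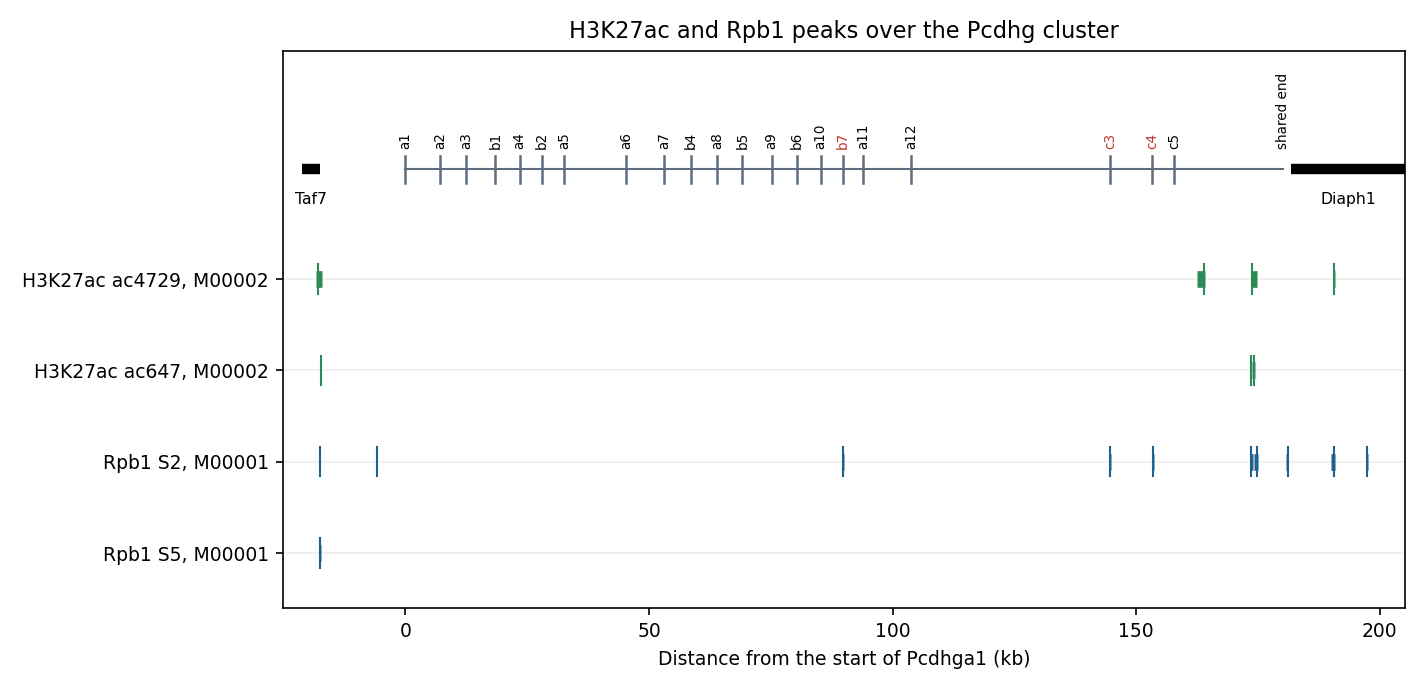
H3K27ac and Rpb1 peaks from Taf7 to the end of the locus, by distance from the start of Pcdhga1 in kb. Thick bars are peaks, thin lines their summits, grey ticks the starts of the 21 Pcdhg genes (Pcdh left off the name, red where an S2 peak covers the start), and black bars are Taf7 and Diaph1. S2 peaks sit on gb7, gc3 and gc4, and H3K27ac lies after gc5.

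H3K27ac, histone acetylation known from active regulatory DNA, was found in the Pcdhg cluster after the last start and not over any start. With ac4729 it covered 37824239 to 37825847, 4693 bp after the start of Pcdhgc5, and 37835254 to 37836635, 5228 bp before the nearest of the shared ends. These peaks were 1609 and 1382 bp wide, wider than 98.5% and 96.4% of the ac4729 list, whose median was 452 bp. Their folds of 4.64 and 4.59 were above 71.4% and 70.3% of the list. The antibody ac647 gave 2 peaks at the second place, 37835193 to 37835450 and 37835774 to 37836055, with folds of 4.65 and 4.28, and 0 at the first. At the second place 2 S2 peaks of M00001 also lay, at 37835255 to 37835728 and 37835922 to 37836749. This was the only site inside the protocadherin clusters with peaks of more than 1 list: 5 peaks of 3 lists over 1557 bp, inside the body of all 21 Pcdhg genes. By body, 21 of 57 members thus had ac4729, ac647 and S2, all of them Pcdhg genes that share these peaks, against 41.9%, 22.2% and 48.5% of all protein-coding genes. The site's H3K27ac and Rpb1 come from different lines, so they were not measured in the same cells. HA, p65, Cbp and p300 had 0 peaks there.

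Within 5 kb of a member end, H3K27ac of ac4729 was called at 1 of 57 members, Pcdhgc5, against 43.1% of all protein-coding genes, and ac647 at 0 of 57, against 21.0%. The interior site lies just outside the 5 kb window, so the gene count leaves it out. By length, ac4729 had 4.16 peaks per Mb in the locus against 11.2 over the chromosomes, and ac647 had 3.12 against 6.07. Of the windows, 35.5% held 4 or fewer peaks of ac4729 and 50.5% held 3 or fewer of ac647. No H3K27ac peak lay in the 860 kb between 36783103 and 37643535, which hold the whole Pcdha and Pcdhb clusters.

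S5 had 3 peaks, and 2 of them lay in clusters without S2. One, at 36954925 to 36955215, was 2236 bp after the start of Pcdha4, with a fold of 2.95 and a −log10 q of 0.329, and 2.90% of S5 peaks had a lower fold. The other, at 37392156 to 37392350, was 8505 bp before Pcdhb9, with a fold of 3.79 and a −log10 q of 1.56. Pcdha4 was the only member with S5 within 5 kb of an end, against 27.7% of all protein-coding genes. Neither S5 peak overlapped a peak of another list.

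For ac4729, S2 and S5 the locus peak with the highest fold of its list lay at a gene that is not a protocadherin, whereas for HA and ac647 it lay inside a protocadherin cluster. Taf7 (37640491 to 37644204), which encodes a subunit of the general transcription factor TFIID and lies between Pcdhb and Pcdhg, had H3K27ac of both antibodies, S2 and S5 at one end. The folds were 6.59 for ac4729, 3.47 for ac647, 6.44 for S2 and 4.06 for S5, and its ac4729 peak was above 95.4% of that list. The ac647 peak at Taf7 was the weakest of the 3 in the locus, above 18.7% of its list, and the strongest, above 64.4%, was at the interior Pcdhg site. Diaph1 (37843601 to 37935622), which encodes a formin that nucleates actin filaments, held the S2 peak with the highest fold, 7.40 at 37851820 to 37852599, overlapped by an ac4729 peak with a fold of 3.53. The S2 peak was above 93.2% of its list. HA had 0 peaks within 5 kb of an end of Taf7, Diaph1 or Slc25a2. Of the 24 peaks, 14 lay inside a protocadherin cluster, and among these the highest rank within a list was 71.4%.

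**Figure D4:**
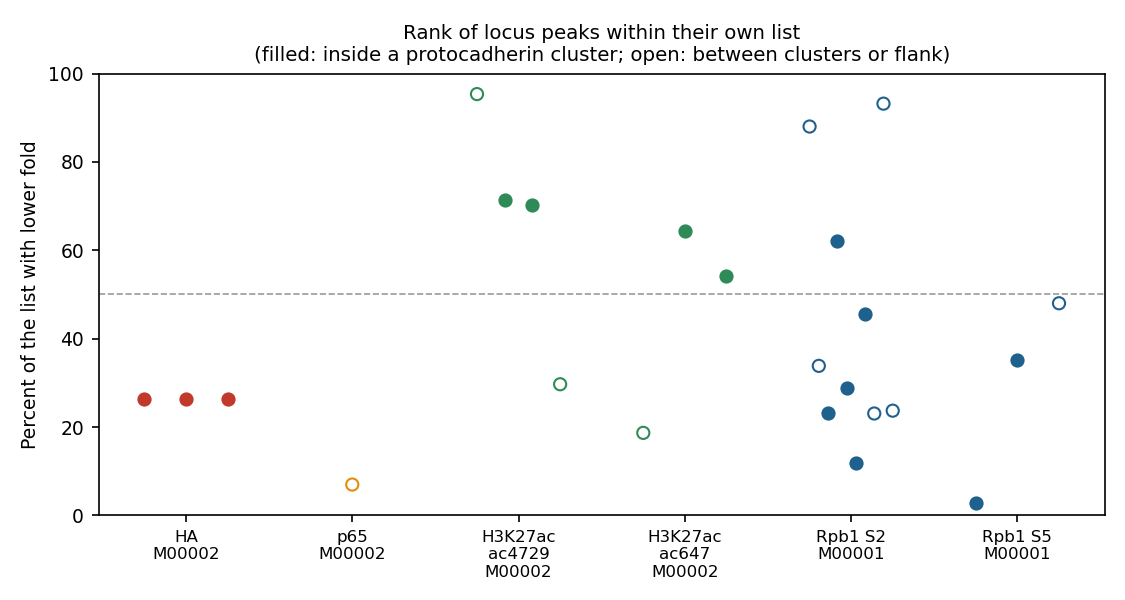
Rank of each locus peak within its own list, as the percent of that list with a lower fold (y axis), for the 6 lists with a peak. Filled points lie inside a protocadherin cluster, open points between clusters or in a flank. The 3 HA points coincide at 26.3%, and the 3 points above 80% are open and belong to Taf7 and Diaph1.

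Other gene clusters were set beside the locus. The 4 Hox clusters hold 39 genes that encode patterning factors. HA of M00002 lay within 5 kb of 4 and HA of M00001 of 1, against 39.9% and 16.5% of all genes. H3K27ac lay at 0 with either antibody, against 43.1% for ac4729 and 21.0% for ac647. S2 lay at 2, against 51.1%. For p65, p300 and S5 the counts were 4, 1 and 2, against 25.1%, 10.4% and 27.7%. Cbp lay at 7, against 7.14%, and the Hox loci held 5 Cbp peaks. The Hox density of HA of M00002 was 4.33 peaks per Mb, against 3.12 in the protocadherin locus. For S2 it was 1.44 against 10.4, and 5 of the 10 S2 peaks of that locus lay inside a protocadherin cluster. The 9 Ugt1a genes, which encode glucuronosyltransferases and share last exons as Pcdha and Pcdhg do, all had HA of M00002 within 5 kb of an end, against 39.9% of all genes, and 0 had HA of M00001, against 16.5%. Their locus held 2 HA peaks of M00002 over 215 kb, with a highest fold of 3.25 against a list median of 4.49, and the genes share these peaks. An IgG peak of M00002 lay within 5 kb of an end of Ugt1a1. None of these differences was tested, since each locus was measured in 1 library per target.

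Protocadherins outside the clusters were counted the same way. Of 12 such genes, 4 had HA in M00002 (Pcdh1, Pcdh11x, Pcdh12 and Pcdh17), against 39.9% of all genes, and Pcdh12 also in M00001, against 16.5%. At Pcdh12, known from endothelial cells, the HA fold was 22.2 in M00002 (chromosome 18, 38263808 to 38263986) and 4.48 in M00001, 3106 and 3145 bp from the gene. Dele1 has an end at 38262629, nearer to the same peaks than Pcdh12 is, so they cannot be assigned to Pcdh12. H3K27ac of ac4729 lay at 5 of the 12 (41.7%), close to the 43.1% of all genes, and S2 at 3, against 51.1%. Among 8 classic cadherins, 3 had HA in M00002 (37.5%) and 1 in M00001 (12.5%), close to the 39.9% and 16.5% of all genes. The gene with HA in M00001 was Cdh3, which encodes P-cadherin. Its folds were 14.8 and 8.44, at 4389 bp from an end, and p65 had a fold of 10.3 at the same place. Cdh2, N-cadherin of neural tissue, had H3K27ac of ac4729 and S2 and no HA, and an IgG peak of M00002 overlapped its S2 peak.

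**Figure D5:**
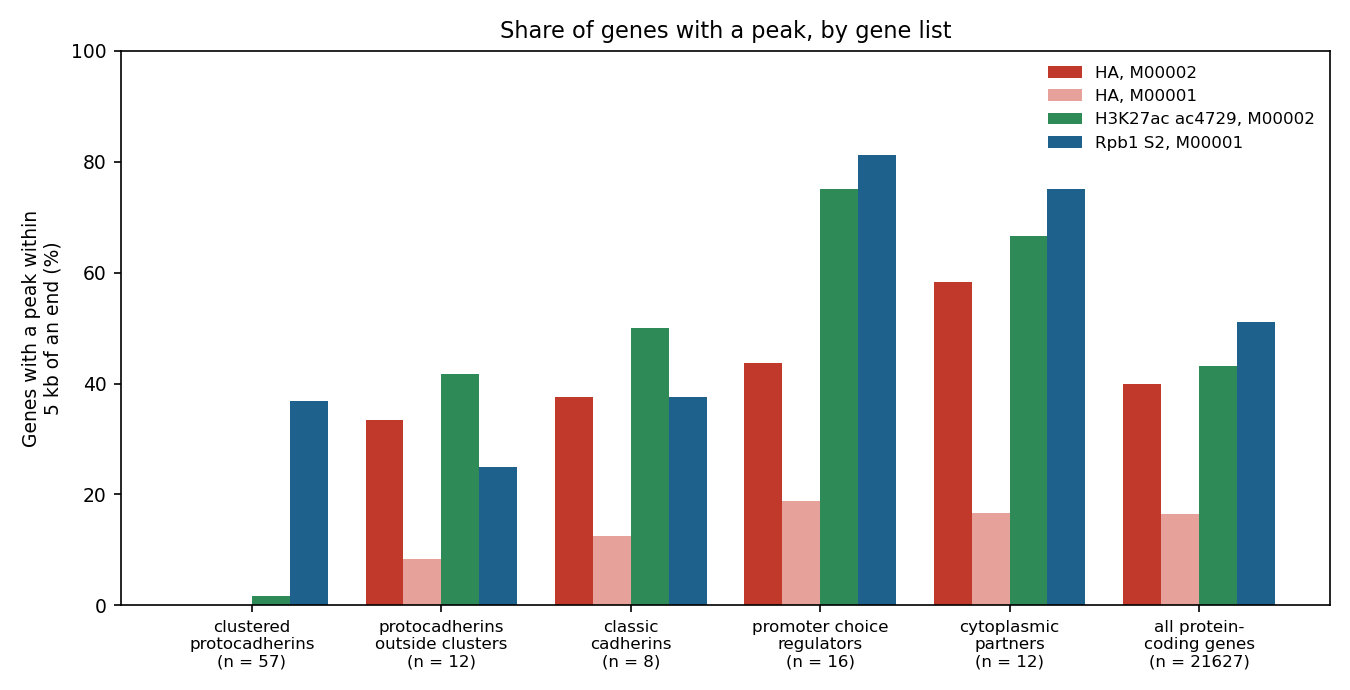
Percent of genes with a peak within 5 kb of either end, for 5 gene lists and for all 21627 protein-coding genes, in 4 of the 11 lists. The clustered protocadherins have 0% for HA of both lines and 1.75% for ac4729. All members in their 36.8% for S2 share 1 peak near the Pcdhg end, and some also have S2 near their start.

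Genes known to set protocadherin promoter choice were counted as well. Of 16 regulators, 12 had H3K27ac of ac4729 and 7 of ac647, against 43.1% and 21.0% of all genes. S2 lay at 13 and S5 at 8, against 51.1% and 27.7%, while Cbp lay at 0 and p300 at 1, against 7.14% and 10.4%. HA lay at 7 in M00002 (Adnp, Ctcf, Dnmt3b, Smchd1, Stag1, Stag2 and Wiz) and 3 in M00001 (Dnmt3b, Pds5a and Pds5b), against 39.9% and 16.5% of all genes. Ctcf, which encodes the insulator protein that binds the protocadherin promoters, had H3K27ac folds of 5.35 with ac4729 and 5.25 with ac647, and p300 at 5.30. Its HA peak of M00002 lay near the opposite end of the gene, with a fold of 3.67 and a −log10 q of 1.41, and M00001 had 0 HA peaks at either end. Dnmt3b, a DNA methyltransferase, was the only regulator with HA in both lines, against 14.5% of all genes, with folds of 20.5 in M00002 and 4.93 in M00001 at 449 and 521 bp inside one end. An IgG peak of M00001 lay within 5 kb of the same end and did not overlap them.

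Of 12 partners of the protocadherin cytoplasmic domains, 7 had HA in M00002, against 39.9% of all genes, and 2 had HA in M00001, or 16.7%, close to the 16.5% of all genes. Ptk2, which encodes focal adhesion kinase, had HA folds of 17.3 in M00002 and 7.04 in M00001 at one end, together with p65 (13.5), H3K27ac of both antibodies (8.13 with ac4729 and 7.61 with ac647), Cbp, S2 and S5. Prkca, a protein kinase C, had HA folds of 9.75 and 4.29. The clustered protocadherins had 0 HA at any gene end, and how they differ from these lists was not tested.

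Marker genes of the cell types the lines could hold were counted the same way, as position of a mark and not as expression. H3K27ac of both antibodies lay at 5 of 8 radial glia and neural stem cell genes (Hes1, Nes, Sox2, Sox9 and Vim), 0 of 8 neuron genes, 1 of 4 microglia and leukocyte genes (Csf1r) and 1 of 4 endothelium genes (Cldn5), against 19.8% of all genes. With ac4729 whatever ac647 gave, the neuron count was 2 of 8 (Snap25 and Tubb3) and the radial glia count 6 of 8, against 43.1% of all genes. S2 of M00001 lay at 3 of 8 genes of both lists, against 51.1% of all genes. In both, 6 of 8 genes had a peak of any library, IgG included, against 68.5% of all genes. The neuron gene Rbfox3 was counted there through an IgG peak of M00001 alone. An IgG peak of M00002 also lay within 5 kb of an end of Nes. At Csf1r an IgG peak of M00002 overlapped the H3K27ac peaks of both antibodies. The Pcdhb genes and the first exons of Pcdha and Pcdhg resemble each other in sequence, and the sources used here do not give how reads that fit several copies were treated, so an empty stretch of a list does not show absence of the target.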

How the data were processed

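For each of the 11 libraries there is 1 deposited peak list, with no pooling across samples. The submitters' processing notes name Bowtie2 2.3.5.1, Trim Galore, FastQC, deepTools, MACS2 and the build mm10, with no settings, and the sources used here do not give a control for calling. Per the labels' tool list, the deposited columns follow the MACS2 layout. The deposited values per peak are a score, the fold enrichment (a ratio), the −log10 of p and of q, and the summit position. The lowest −log10 p in the deposited files was 3. For HA and p65 of M00002 the list names contain 120 bp, with no stated meaning. No read counts are given, so the depth is unknown.

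Chromosomes 1 to 19 and X were used (Python 3.11.15, scipy 1.17.1). Genes and coordinates came from the RefSeq table of GRCm38.p6, which lists no strand. A gene was called when a peak lay within 5 kb of either end, and overlap meant at least 1 bp. Overlap code was tested on simulated data. With 1 library per target and line, no test was run. Intervals are exact and cover counting error over peaks only. Members, gene lists and alternatives were chosen with earlier results of these data known. Named genes were all members with a peak of their own, the strongest peak per list, and up to 4 genes per other list with HA in both lines. Other genes were named after their values were seen.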

Additional observations from a re-analysis of the deposited data

How the results depend on the processing

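The 24 peaks of the locus became 15 at a −log10 q of 2 or more and 7 at 5 or more, where 0 HA and 0 p65 peaks were left. They numbered 20 without the flanks and 32 with 100 kb flanks. Removal of peaks that overlap IgG changed none of the 24, and could not, since both IgG lists had 0 peaks in the locus. The 23 members with a peak of any list became 2 at a −log10 q of 5 or more, 0 with the 2000 strongest peaks of each list and 37 with a 25 kb window. They numbered 21 at a −log10 q of 2 or more and 21 with a 1 kb window. HA peaks shared by the lines, or overlapped by any other list, were 0 of 3 with 50% overlap, with summits within 500 bp and without IgG. The nearest peak of any other list lay 75.8 kb away, so these settings could give no other count and show no stability. With a q limit no HA peak was left to compare. Genes of the 4 pathway lists with HA in both lines numbered 5 of 48, against 14.5% of all genes. They numbered 2 at a −log10 q of 5 or more and 2 with the 2000 strongest peaks. With a 1 kb window they numbered 3 and with 25 kb 10. With the transcription start only they numbered 3, and 29 of 48 genes had a start. Shares of all genes were not counted under these other settings. The promoter table holds 0 of the 57 members, so starts by strand were not run for them. No paired analysis was possible because each target has 1 library per line and no result comes from a test. Read depth is unknown, so a list without a peak sets no limit on binding.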
